A study of Mus musculus with 4 samples.

Results

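The genes described here are 10 genes of copper handling, chosen by name from 48709 gene identifiers in liver RNA-sequencing counts: the importers Slc31a1 and Slc31a2, the chaperones Atox1, Ccs and Cox17, the exporters Atp7a and Atp7b with their partner Commd1, and the copper enzymes Sod1 and Cp. All 10 had enough reads to be tested. The study compared liver of adult C57BL/6 mice without treatment, in 2 WT and 2 DDI2-KO libraries that the study calls biological replicates. DDI2-KO mice carried floxed DDI2 alleles (DDI2 flox/flox) and a Cre recombinase under the albumin promoter (Alb Cre+), and their genotype is labelled DDI2-/-. WT mice were littermates with the floxed alleles and no Cre. The albumin promoter is active in hepatocytes, and the counts do not show in which liver cells the gene was cut. The comparison asks how transcripts that move copper stood in the livers in which the metallothionein transcripts Mt1 and Mt2 were low.

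Copper enters cells through the transporter SLC31A1 (CTR1), is handed between proteins by small chaperones, and is either built into enzymes, held by metallothioneins or exported. In the hepatocyte ATP7B loads copper onto ceruloplasmin and sends the excess into bile, which is the route by which the body loses copper, and its failure causes Wilson disease. Metallothioneins are small cysteine-rich proteins that bind zinc, copper and cadmium, and their genes respond to metals through the factor MTF-1, which binds metal response elements. DDI2 is a protease that cleaves and so activates the transcription factor NRF1, encoded by Nfe2l1.

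Reads on genes numbered 34109018 and 31532247 in WT, against 25582344 and 22501208 in DDI2-KO. Ddi2 itself had 4749 and 3812 reads in WT, against 4068 and 3777 in DDI2-KO, that is 132 ± 12.6 and 161 ± 5.09 CPM (reads scaled to a common library size with TMM factors; mean ± SD, n = 2), a log2 fold change of 0.28 (SE 0.17, adjusted p = 0.349, edgeR). The whole-gene count did not go down with the label, and it does not show which part of the gene the reads cover. DDI2-KO below therefore stands for the libraries labelled DDI2-KO. The summed level of 6 hepatocyte markers was 154040 and 179091 CPM in WT and 144805 and 148864 CPM in DDI2-KO, and no marker of any cell type list was at 0 in every library. Of the markers of other cells and RNA quality, Stab2 (sinusoidal endothelium), Hba-a1 (red cells) and the nuclear RNAs Malat1 and Neat1 fell in DDI2-KO, by 1.10, 1.94, 1.29 and 1.78 on the log2 scale (edgeR, adjusted p = 0.0288, 0.0338, 0.0224 and 0.0438). Some of these calls were lost with other settings: Stab2 without WT library 1 (adjusted p = 0.109), Hba-a1 without DDI2-KO library 1 (0.196) or 2 (0.213), and Neat1 without WT library 1 (0.0559), without DDI2-KO library 1 (0.0921) and with the replicate block (0.0536). The 5 endothelial markers did not move together: their log2 fold changes ran from -1.10 (Stab2) to 0.22, with a median of 0.039, and their summed level was 338 and 310 CPM in WT and 307 and 302 CPM in DDI2-KO. The summed nuclear RNA level was 217 and 162 CPM in WT and 49.1 and 75.1 CPM in DDI2-KO, and its part in the results below was not tested. In whole liver, fewer cells of a type and less RNA per cell cannot be told apart.

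Copper handling transcripts showed no loss like that of Mt1. Of the 10 genes, Commd1 rose in DDI2-KO and none fell, by edgeR's quasi-likelihood test across 13699 genes at an adjusted p threshold of 0.05. In that test 2.53% of all genes were called, 1.33% as higher and 1.2% as lower, so 1 called gene among 10 is a small count to set beside the background. The fitted log2 fold change was above 0 for 8 of the 10 genes, beside 48.7% of all genes, and its median was 0.25, beside -0.015 over all genes. For Atp7a the sign turned under upper-quartile scaling. The groups did not overlap for 6 of the genes, beside 55.7% of all genes: both DDI2-KO libraries lay above both WT libraries for 5 of them (28% of all genes) and below for 1, Cox17 (27.7% of all genes). At an unadjusted p under 0.05 there were 3 genes, Commd1, Atox1 and Sod1, beside 23.5% of all genes. DESeq2 called 1 of the 10 genes, beside 7.29% of the genes to which it gave an adjusted p, limma-voom called 1, beside 0.993%, and limma-trend called none, beside 1.01%.

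**Figure D1:**
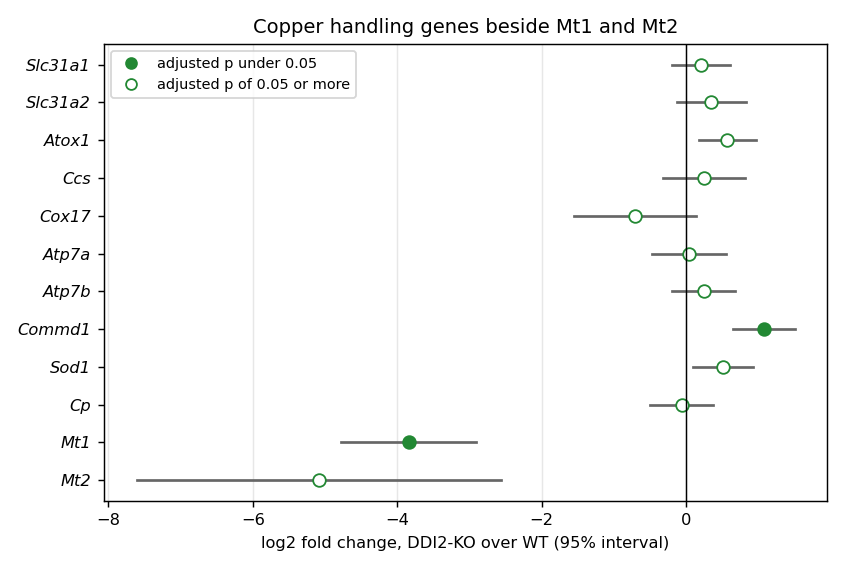
Log2 fold change of DDI2-KO over WT for the 10 copper handling genes and for Mt1 and Mt2, with 95% intervals (2 libraries per group). Filled points have an adjusted p under 0.05 in edgeR's test. Only Commd1, at 1.08, and Mt1, at -3.84, are filled, and the intervals of the 10 copper handling genes lie to the right of that of Mt1.

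Commd1 is the member that changed. Its protein binds ATP7B and takes part in the trafficking of the copper exporters, and its loss leads to copper storage in the liver of dogs. Commd1 (ENSMUSG00000051355) lies on the minus strand of chromosome 11, from 22896136 to 22982382 in GRCm38. It had 262 and 273 reads in WT, against 481 and 379 in DDI2-KO, which is 7.79 and 8.84 CPM against 18.6 and 16.5 CPM. The DDI2-KO libraries were both higher than the WT libraries, with a gap between the groups wider than the spread within either. The means were 8.31 ± 0.738 CPM and 17.5 ± 1.48 CPM (SD, n = 2), and the fold was 2.11 (95% interval 1.57 to 2.84; log2 fold change 1.08, SE 0.19). The adjusted p was 0.0367 (edgeR), and between 0.000272 and 0.163 under the 15 alternative settings, of which 12 called the gene. The call was lost without WT library 1 (log2 fold change 0.99, adjusted p = 0.163), without WT library 2 (1.17, adjusted p = 0.0800) and in limma-trend (1.07, adjusted p = 0.0517).

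Part of the Commd1 exon sequence is shared with other genes. On the opposite strand, 412 of its 5936 exon bases (6.94%) overlap Zrsr1, which had 341 and 334 reads in WT, against 240 and 254 in DDI2-KO, a log2 fold change of -0.045 (SE 0.20). On its own strand, 294 bases (4.95%) overlap the gene model Gm28048, which had 0 reads in all 4 libraries. Reads that match both genes would be left out as ambiguous, and relative to the reads on genes such reads came to 2.50% and 2.54% in WT, against 3.49% and 3.66% in DDI2-KO. Whether this bears on the Commd1 count was not tested.

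The promoters of the genes were read for the letters by which Mt1 and Mt2 answer to metals. RefSeq promoter windows of 300 bases (250 before to 50 after a start, GRCm38.p6) were found for 8 of the 10 genes. The metal response element core, TGCACNC or TGCGCNC on either strand, was in 25.7% of 32851 promoter windows, at 2 or more places in 7.11% and at 3 or more in 1.97%. The Mt1 window held 3 matches and the Mt2 window held 4. The Mt1 gene has 1246 exon bases from base 94179082 on, against 549 in its principal transcript. Its match counts and distances therefore hold for the start of this window only, and windows of other Mt1 starts were not read. Among the copper handling genes Atp7a held 2 matches, while Slc31a2, Atp7b and both Commd1 windows held 1 each and Slc31a1, Atox1, Sod1 and Cp held none. The matches of Mt1, Mt2, Atp7a, Atp7b and Commd1 are shown 5′ to 3′ with 10 bases on each side and the core in capitals, because they set the metallothionein promoters beside those of the copper exporters.
Atp7a, chrX:106027082-106027108, minus strand, -129 bases from the start: cgccccctggTGCACGCatgcattctc
Atp7a, chrX:106027094-106027120, minus strand, -117 bases from the start: gggagctcctTGCGCCCcctggtgcac
Atp7b, chr8:22060215-22060241, minus strand, -154 bases from the start: tggtcctcgcTGCACCCtatctgcagc
Commd1, start 1, chr11:22982488-22982514, plus strand, -217 bases from the start: gatgtgcaaaTGCGCACtcaaaggaac
Commd1, start 2, chr11:22972940-22972966, plus strand, -87 bases from the start: cgactgcgcaTGCGCACattcaactac
Mt1, chr8:94179056-94179082, plus strand, -20 bases from the start: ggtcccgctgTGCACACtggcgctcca
Mt1, chr8:94179081-94179107, plus strand, 5 bases from the start: cagggagctcTGCACTCcgcccgaaaa
Mt1, chr8:94179099-94179125, plus strand, 23 bases from the start: gcccgaaaagTGCGCTCggctctgcca
Mt2, chr8:94172385-94172411, plus strand, -220 bases from the start: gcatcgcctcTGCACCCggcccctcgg
Mt2, chr8:94172480-94172506, plus strand, -125 bases from the start: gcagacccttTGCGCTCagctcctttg
Mt2, chr8:94172558-94172584, minus strand, -47 bases from the start: ggacagagccTGCACACgccctccccc
Mt2, chr8:94172612-94172638, minus strand, 7 bases from the start: cccctgggccTGCGCACgacccgaatt

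The antioxidant response core bound by NRF1 and its relatives, TGACNNNGC on either strand, was in 12.4% of the promoter windows. It matched at 1 place each in Atox1, Sod1, Slc31a2 and Mt2 and at 2 places in the window of the second Commd1 start. No match lay in the windows of Slc31a1, Atp7a, Atp7b, Cp and Mt1. Sequence outside the windows was not searched, so the lack of a match in the Mt1 window is not its lack in the promoter. The paper's introduction places antioxidant response elements in the promoters of metallothionein genes. A looser core, TGANNNNGC, was in 41.3% of windows. It matched at 3 places in Slc31a2 and at 5 in the window of the second Commd1 start. Atox1, Atp7a, Sod1, Mt2 and the first Commd1 window held 1 match each, and Slc31a1, Atp7b, Cp and Mt1 held none. The match of Slc31a2 (adjusted p = 0.341, edgeR) is not printed, and a link between matches and fold changes was not tested. Those of Commd1, Atox1 and Sod1 are shown in the same way, beside that of Mt2. These members were picked by an unadjusted p under 0.05 (edgeR), which 23.5% of all genes had.
Atox1, chr11:55461264-55461292, minus strand, -70 bases from the start: ggccgggcctTGACGAAGCtagccccgga
Commd1, start 2, chr11:22972985-22973013, plus strand, -133 bases from the start: aacacgccggTGACTCAGCtggttcaagc
Commd1, start 2, chr11:22972878-22972906, plus strand, -26 bases from the start: gataaccgagTGACTGCGCaggtaggcgg
Sod1, chr16:90220696-90220724, minus strand, -52 bases from the start: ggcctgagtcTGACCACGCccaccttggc
Mt2, chr8:94172529-94172557, plus strand, -75 bases from the start: aaagggggtgTGACTCAGCgcggggggtg
These matches describe the letters in the windows and not binding. The Commd1 sites of the second start lie within the span of Zrsr1.

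The importers differed little. SLC31A1 is the high-affinity copper transporter of the plasma membrane, and SLC31A2 is its relative in intracellular membranes. Slc31a1 (ENSMUSG00000066150, chr4:62360727-62391769) had 8826 and 7204 reads in WT, against 7136 and 6826 in DDI2-KO, or 263 and 233 CPM against 276 and 297 CPM. Both DDI2-KO values were above both WT values by a margin smaller than the gap between the WT libraries. Its log2 fold change was 0.21 (95% interval -0.19 to 0.60, adjusted p = 0.511, edgeR). Slc31a2 (ENSMUSG00000066152, chr4:62262562-62298411) had far fewer reads, with 8.71 and 7.67 CPM in WT and 9.35 and 11.6 CPM in DDI2-KO. Again the groups did not overlap, and the closest libraries were near each other. Its log2 fold change was 0.35 (95% interval -0.12 to 0.83, adjusted p = 0.341, edgeR).

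The mean level of the cytosolic chaperones was higher in DDI2-KO and that of the mitochondrial one lower, and none passed the threshold. ATOX1 carries copper to ATP7A and ATP7B. Atox1 (ENSMUSG00000018585, chr11:55446641-55461239) had 1232 and 1056 reads in WT, against 1516 and 1070 in DDI2-KO, which is 36.6 and 34.2 CPM against 58.6 and 46.6 CPM. The WT libraries lay close together, and both DDI2-KO libraries were above them although they differed from each other more. The log2 fold change was 0.57 (SE 0.17, 95% interval 0.18 to 0.96) and the adjusted p was 0.105 in edgeR (0.0102 unadjusted). Under the 15 alternatives the adjusted p ran from 0.0314 to 0.396, and 3 of them called the gene: no filter on low counts, offsets for GC content and length (log2 fold change 0.72, adjusted p = 0.0314), and the fit without DDI2-KO library 2 (0.73, adjusted p = 0.0427).

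CCS is the chaperone that inserts copper into SOD1. Ccs (ENSMUSG00000034108, chr19:4825366-4839332) had 119 and 103 CPM in WT and 164 and 99.7 CPM in DDI2-KO, so that the DDI2-KO libraries enclosed the WT values. The log2 fold change was 0.25 (95% interval -0.31 to 0.82, adjusted p = 0.582, edgeR), and -0.15 without DDI2-KO library 1.

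COX17 brings copper to the mitochondrial intermembrane space for cytochrome c oxidase. Cox17 (ENSMUSG00000046516, chr16:38346991-38352763) had 93 and 105 reads in WT, against 33 and 58 in DDI2-KO, or 2.77 and 3.40 CPM against 1.27 and 2.52 CPM. It was the member with both DDI2-KO libraries below both WT libraries, and its DDI2-KO libraries differed by more than the groups came apart. The log2 fold change was -0.70 (SE 0.37, 95% interval -1.55 to 0.14, adjusted p = 0.286, edgeR), with -0.28 without DDI2-KO library 1 and -1.26 without DDI2-KO library 2. Of the 50-base stretches of its 444-base transcript, 52.7% also occur in the overlapping gene model Gm21987, which had 0 reads in every library. Reads on those stretches could be counted for neither gene, so the Cox17 count is uncertain both in its level and in its difference. The larger share of ambiguous reads in the DDI2-KO libraries stands beside this, and its part was not tested.

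The copper pumps showed no difference beyond the spread between libraries. ATP7A is the pump of most tissues other than the adult hepatocyte, and ATP7B is the pump of the hepatocyte. Atp7a (ENSMUSG00000033792, chrX:106027276-106124926) had 4.52 and 4.60 CPM in WT and 4.56 and 4.83 CPM in DDI2-KO, and the groups overlapped. Its log2 fold change was 0.042 (95% interval -0.47 to 0.55, adjusted p = 0.933, edgeR). Atp7b (ENSMUSG00000006567, chr8:21992785-22060305) had 1181 and 1122 reads in WT, against 1273 and 815 in DDI2-KO, or 35.1 and 36.3 CPM against 49.2 and 35.5 CPM. DDI2-KO library 1 stood above the other three, which lay together. The log2 fold change of 0.25 (95% interval -0.19 to 0.68, adjusted p = 0.477, edgeR) was -0.0065 without that library.

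Of the enzymes, Sod1 stood higher in both DDI2-KO libraries and Cp was level. SOD1 is the cytosolic superoxide dismutase that holds copper and zinc. The paper assayed superoxide dismutase activity in livers of mice injected with PBS or cadmium, a measure unlike the transcript. It describes its toxicology results as like those of WT at steady state, apart from reduced catalase activity. Sod1 (ENSMUSG00000022982, chr16:90220754-90226329) had 15989 and 15038 reads in WT, against 19618 and 14156 in DDI2-KO, or 476 and 487 CPM against 758 and 616 CPM. The WT libraries agreed closely, while the DDI2-KO libraries were apart and both higher. The means were 481 ± 7.89 CPM and 687 ± 100.4 CPM (SD, n = 2), with a log2 fold change of 0.51 (95% interval 0.093 to 0.93), and edgeR's adjusted p was 0.146 (0.0224 unadjusted). None of the 15 alternatives called it (adjusted p from 0.0930 to 0.421). Of the 50-base stretches of its 641-base transcript, 23.1% also occur in Gm8566, which had 8 and 5 reads in WT, against 19 and 9 in DDI2-KO, so reads on those stretches may not have been placed.

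Ceruloplasmin, encoded by Cp, is the ferroxidase that carries most of the copper in plasma and is also an acute phase protein. Cp (ENSMUSG00000003617, chr3:19957054-20009145) had 62394 and 48095 reads in WT, against 38351 and 41257 in DDI2-KO, or 1856 and 1557 CPM against 1482 and 1795 CPM. The groups overlapped, with the highest and the lowest value in different genotypes and the other values between them. The log2 fold change was -0.058 (95% interval -0.49 to 0.38, adjusted p = 0.884, edgeR). Of 9 acute phase genes tested beside it, edgeR called 0, as did DESeq2, with 0 at an unadjusted p under 0.05, and their summed level was 11942 and 12768 CPM in WT and 14227 and 14477 CPM in DDI2-KO.

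**Figure D2:**
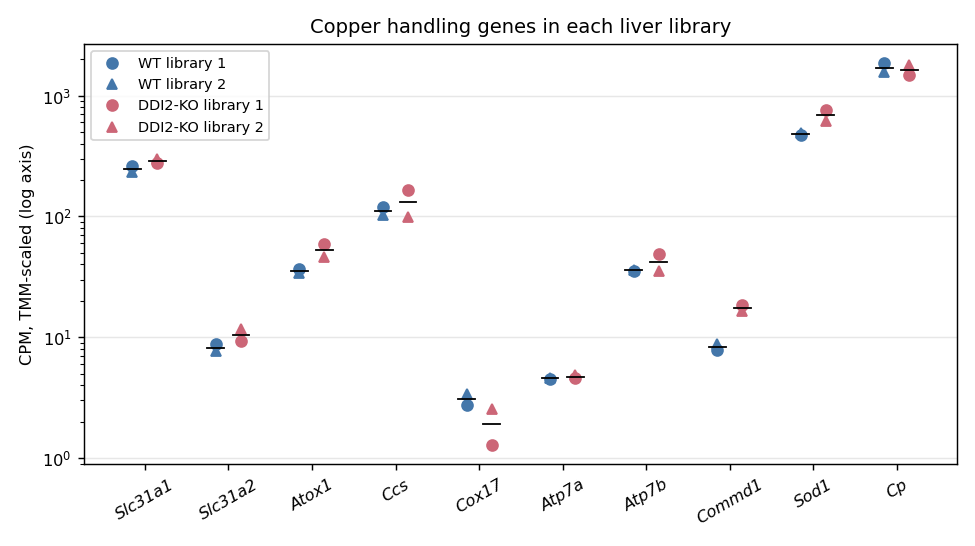
CPM of each copper handling gene in each library on a log axis, with a bar at each group's mean. WT and DDI2-KO points separate most clearly for Commd1, while those of Atp7a and Cp lie together.

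Per length, as RPKM, which is CPM divided by the length of the principal transcript in kilobases, the genes spanned a wide range. In WT, Sod1 was the most abundant at 751 RPKM, followed by Cp at 423 and Ccs at 104. Slc31a1 at 66.7 and Atox1 at 65.5 RPKM came next and overlapped between libraries. Below them lay Cox17 at 6.94, Atp7b at 5.49, Slc31a2 at 4.50, Commd1 at 1.84 and Atp7a at 0.930 RPKM, each without overlap with the next. Thus the pump of the hepatocyte was listed above Atp7a in both genotypes. In DDI2-KO, Sod1 was at 1072 RPKM and Cp at 407 RPKM, and Atox1, at 97.2 RPKM, stood above Slc31a1, at 77.0 RPKM. Ccs, at 124 RPKM, overlapped Atox1. Atp7b, Slc31a2, Cox17 and Commd1, from 6.51 down to 3.89 RPKM, each overlapped their neighbour, and Atp7a was again the lowest at 0.958 RPKM. The levels of Cox17 and Sod1 carry the uncertainty of their shared sequence. Reads were counted per gene and divided by the length of 1 transcript. That length was 444 bases for Cox17, with 5773 exon bases, and 641 for Sod1, with 3970. For Atp7a it was 4900, with 8734 exon bases. The order can depend on the transcript chosen, and overlap here refers to the libraries only.

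Against these values stood the metallothioneins. Mt1 had 3271 and 1451 reads in WT, against 140 and 107 in DDI2-KO, and Mt2 had 1743 and 424 reads in WT, against 24 and 23 in DDI2-KO. Both genes differed widely between the WT libraries, and every DDI2-KO value was well below every WT value. Mt1 fell by 3.84 on the log2 scale (SE 0.39, adjusted p = 0.0186, edgeR; 8.55e-28 to 0.187 under the alternatives), a call that was lost without DDI2-KO library 1 (-3.95, adjusted p = 0.187) and without DDI2-KO library 2 (-3.73, adjusted p = 0.185). The log2 fold change of Mt2 was -5.08 (SE 0.90) with an adjusted p of 0.0803, and 6 of 15 alternatives called it. On the opposite strand, 432 of its 588 exon bases (73.5%) overlap Gm45774, which had 2 and 1 reads in WT and 0 in both DDI2-KO libraries. Mt3 and Mt4 had 0 reads in all libraries, and 3 reads would have been 0.0880 to 0.133 CPM.

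The difference between each copper handling gene and Mt1 was then tested on the log2 ratio of their CPM within each library. Relative to Mt1, the 10 genes were higher in DDI2-KO by 2.99 (Cox17) to 4.80 (Commd1) on the log2 scale, with a median of 3.95. For all genes the median was 3.71. By CPM, Atox1 was at 0.491 of Mt1 in WT and at 10.4 times Mt1 in DDI2-KO, Commd1 at 0.115 and 3.48 times, and Sod1 at 6.67 and 137 times. Thus Atox1, Atp7b, Commd1 and Slc31a2 were below Mt1 in both WT libraries and above it in both DDI2-KO libraries. Limma-trend called 10 of the 10 differences, beside 99.4% of 13698 genes, since all ratios share the values and the error of Mt1. Without moderation across genes, which leaves 2 residual degrees of freedom, 9 of 10 were called, beside 83.8% of all genes. The exception was Cox17, with a difference of 2.99 and a 95% interval from -0.83 to 6.80. In limma-trend without DDI2-KO library 2, 9 of 10 were called, again all but Cox17. The copper handling genes and all genes had similar shares, so the test does not set them apart from other genes.

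**Figure D3:**
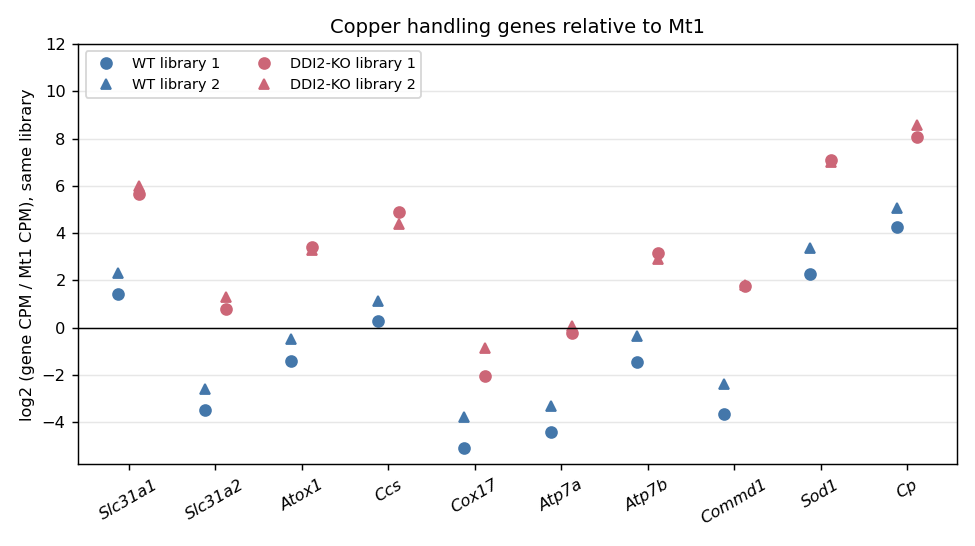
Log2 ratio of each copper handling gene's CPM to that of Mt1 in the same library, for 2 WT and 2 DDI2-KO libraries. Every gene's DDI2-KO points lie above its WT points, by 2.99 to 4.80 on average, and the line at 0 marks a level equal to Mt1.

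A wider list of 60 other copper genes, of which 49 were tested, showed where else in the pathway transcripts moved. Coa6 and Slc25a3 rose and Mt1 fell, which is 3 called genes (6.12% of those tested), beside 2.53% of all genes. The list was made with earlier results of these data known, the fall of Mt1 among them. Leaving out the metallothioneins, 2 of 47 tested genes were called (4.26%). Of these 47, 31 had a log2 fold change above 0 and 16 below, with a median of 0.15. DESeq2 called 9 of the 49 (7 without the metallothioneins), beside 7.29% of all genes, and limma-voom 2 (1 without them), beside 0.993%.

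Both genes that rose belong to the delivery of copper to cytochrome c oxidase, the mitochondrial enzyme that COX17 also serves. COA6 is an assembly factor for the copper site of that enzyme. Coa6 had 125 and 110 reads in WT, against 324 and 201 in DDI2-KO, which is 3.64 ± 0.111 and 10.6 ± 2.67 CPM (SD, n = 2). The DDI2-KO libraries were both well above WT, and the log2 fold change was 1.55 (SE 0.24, adjusted p = 0.0299, edgeR). SLC25A3 carries phosphate, and also copper, across the inner mitochondrial membrane. Slc25a3 had 4452 and 4461 reads in WT, against 6469 and 6534 in DDI2-KO, or 138 ± 8.46 and 267 ± 24.3 CPM, with a log2 fold change of 0.95 (SE 0.17, adjusted p = 0.0406, edgeR). For both genes the call was lost without WT library 1 (adjusted p = 0.0735 and 0.168) and without WT library 2 (0.0602 and 0.0918), and for Slc25a3 also in limma-voom (0.0504) and without robust estimation (0.0529). On the opposite strand, 14.1% of the Coa6 exon bases overlap Tarbp1, whose log2 fold change was 0.19 (SE 0.24).

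Of the 11 genes of that group, all tested, 10 had a log2 fold change above 0, beside 48.7% of all genes. The median of the group was 0.66. Among the 10, Cox16 had 21 and 6 reads in WT, against 26 and 2 in DDI2-KO, and its groups overlapped. Its log2 fold change of 0.43 (SE 0.97) does not show a direction. Both DDI2-KO libraries lay above WT for 9 of the 11, beside 28% of all genes, and 8 had an unadjusted p under 0.05, beside 23.5%. The group is part of the list made with earlier results known, so these shares are not an independent test. The lowest was Chchd7, at -0.026 (adjusted p = 0.963, edgeR), which turned to 0.024 with library totals only. Cox17, the best known chaperone of the same route, had the opposite sign at -0.70, with the shared sequence described above.

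The other roles held no called gene by edgeR. Among 4 tested genes of uptake and copper reduction, log2 fold changes ran from -0.83 (Steap3, a metalloreductase, adjusted p = 0.0665) to 0.33 (Slc11a2, the divalent metal transporter DMT1). In that group 1 gene had an unadjusted p under 0.05, and DESeq2, with its 7.29% of all genes, called 1. Among 12 genes of the COMMD family and its CCC complex, the partners of Commd1, values ran from -0.24 (Commd3) to 0.51 (Ccdc22), with 1 gene at an unadjusted p under 0.05 and none called by DESeq2. Thus Commd1, at 1.08, lay above the range of its 12 partners, and differences between them were not tested.

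Among 8 other copper binding proteins and ATP7 partners, Glrx, a glutaredoxin, was highest at 0.54 (adjusted p = 0.0989) and Xiap, an inhibitor of apoptosis that ubiquitinates COMMD1, lowest at -0.58 (adjusted p = 0.161, edgeR). Xiap was at -0.14 with GC and length offsets, at -0.32 without DDI2-KO library 1, and at -0.87 without DDI2-KO library 2, where it was called (adjusted p = 0.0497). Here 2 genes had an unadjusted p under 0.05 and DESeq2 called 0. Of 19 other copper enzymes, 12 were tested, and values ran from -0.98 for Sod3, the extracellular superoxide dismutase, to 0.60 for Pam, which amidates peptides. Sod3 had 2039 and 2510 reads in WT, against 1085 and 693 in DDI2-KO (adjusted p = 0.0583, edgeR), and was called by 5 of 15 alternatives, DESeq2 among them, while Sod1 had the opposite sign. In that group 3 genes had an unadjusted p under 0.05.

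**Figure D4:**
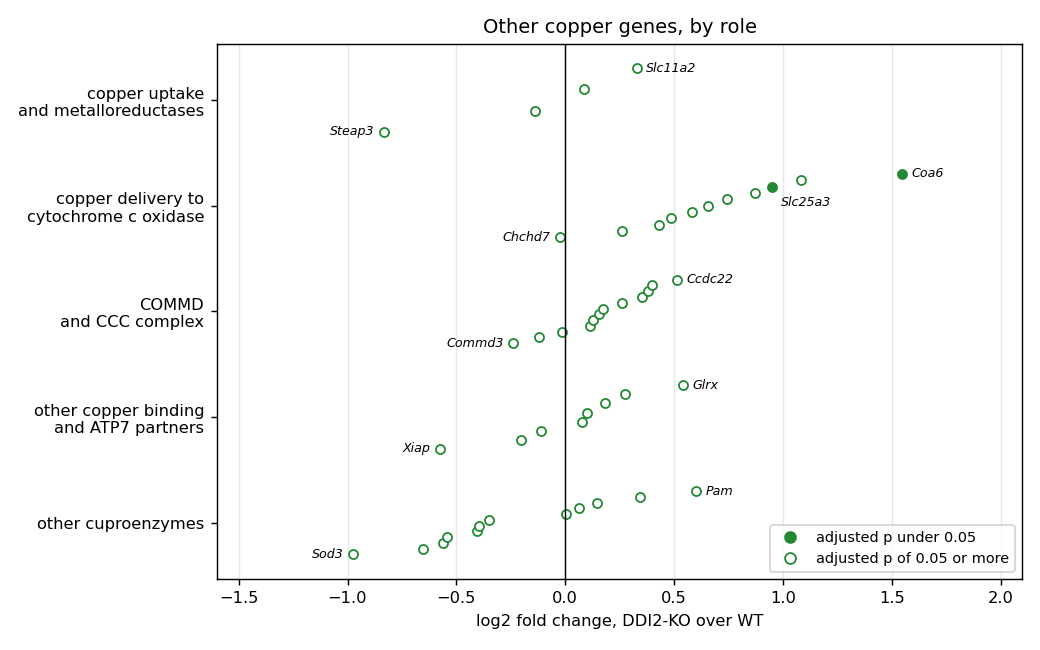
Log2 fold change of DDI2-KO over WT for the tested genes of the wider copper list without the metallothioneins, in a row per role. Points for copper delivery to cytochrome c oxidase lie mostly to the right of 0, with Coa6 and Slc25a3 filled as called, and the other roles spread to both sides with no filled point.

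The DDI2-KO libraries differed from each other more than the WT libraries did for several members, and the difference moved with base composition. DDI2-KO library 1 was the higher one for 5 genes, Atox1, Ccs, Atp7b, Commd1 and Sod1, and library 2 for the other 5. The log2 ratio of library 2 over library 1 ran from -0.72 for Ccs, with 56.5% GC, to 0.95 for Cox17, with 48.4% GC. Across the 10 genes its correlation with GC content of the transcript was -0.59 (Pearson) and -0.67 (Spearman), and in WT it was -0.071 and 0.12. The points share the same libraries and are not independent. Across all tested genes the Spearman correlation was -0.48 in DDI2-KO and 0.072 in WT. With offsets for GC content and length the log2 fold change was 1.11 for Commd1 (adjusted p = 0.0263), 0.72 for Atox1 and 0.061 for Cp (edgeR).

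**Figure D5:**
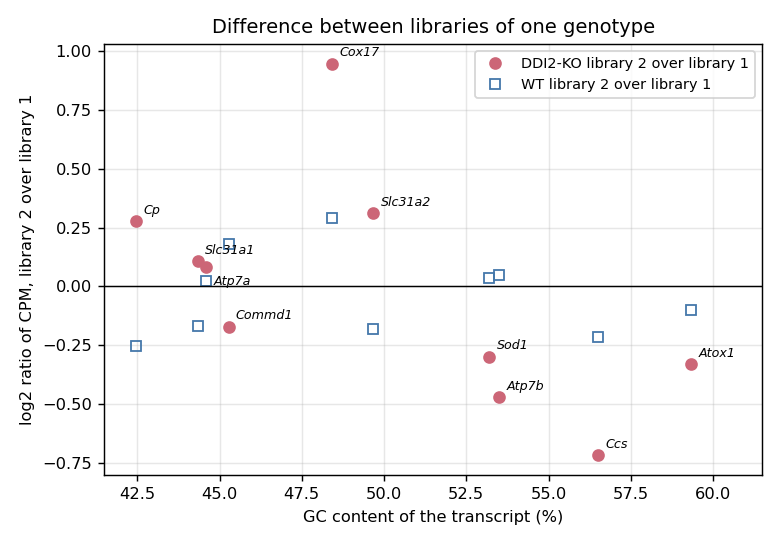
Log2 ratio of CPM of library 2 over library 1 within DDI2-KO (filled circles, named) and within WT (open squares), against the GC content of each gene's transcript in percent. Of the DDI2-KO points, Ccs, Atp7b, Atox1 and Sod1, all above 53% GC, lie below 0, as does Commd1 at 45.3% GC, while the WT points show no such order.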

How the data were processed

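Liver mRNA of 4 untreated mice was sequenced from a stranded library kit. The authors deposited raw counts of reads per Ensembl gene, with no normalization, made with cutadapt 1.8, STAR 2.5.2b, HTSeq 0.6.1 and GRCm38 by the submitters' processing notes. The strand setting of the counting is not given in the sources used here. Summary rows that name no gene were left out of library sizes and tests. They held reads on no feature (2.53% to 5.11% of the reads on genes) and ambiguous reads (2.50% to 3.66%). A larger row held alignments that were not unique, at 22447151 and 16344248 in WT, against 12589212 and 10636123 in DDI2-KO. The part of these alignments in the results was not tested. GENCODE M21 held 48349 of the 48709 identifiers.

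Genotypes were compared by robust quasi-likelihood tests in edgeR 4.0.16 (R 4.3.3) after filterByExpr and TMM scaling, with Benjamini-Hochberg adjustment over 13699 genes, and a threshold of 0.05. Intervals are 95%. The alternatives, including DESeq2 1.42.0 and limma 3.58.1 (voom, and trend with a prior count of 2), each changed a single choice. Limma-trend also tested the log2 ratio to Mt1. The version without moderation and the looser NRF1 core were chosen after seeing the data. Scripts were tested on simulated data. RPKM used the principal transcript.

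Named are all members, Ddi2, Mt1, Mt2, the called genes of the wider copper list, the highest and lowest of each role, and the called markers. Genes that share bases with them, Cox16, mt-Co1 and the genes listed at 0, and the sequences printed, were picked with their values in view. The members and lists were chosen with earlier results of these data known. With 2 libraries per group, the p-values measure the spread between these libraries, moderated across genes except where the text says otherwise. A level of 3 counts was 0.0880 to 0.133 CPM.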

Additional observations from a re-analysis of the deposited data

Results flagged for a closer look

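Reads that the counting left unassigned, as matching more than 1 gene are outside the comparisons above. Relative to the reads on genes they came to 3.49% and 3.66% in DDI2-KO, above the 2.50% and 2.54% in WT. Of the copper handling genes, Cox17, Commd1 and Cp share bases with another annotated gene. Groups of 2 libraries were not searched for outlying values.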

How the results depend on the processing

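Each of the 10 copper handling genes had the same direction under all 15 alternatives except Ccs (-0.15 to 0.58 with a library left out, lowest without DDI2-KO library 1), Atp7b (-0.0065 to 0.47, likewise), Atp7a (-0.011) with upper-quartile factors and Cp (0.061 with GC and length offsets, and -0.19 to 0.077 with a library left out). Their median log2 fold change was between 0.18 and 0.33 in all 15, beside 0.25. In the alternatives that kept every library, 10 of their differences from Mt1 were called, or 9 without moderation. The number of members called was 0 with limma-trend, 2 without a filter, 2 with GC and length offsets and 0 to 2 with a library left out. Of the wider list, 9 genes were called by DESeq2, 11 without a filter, 9 with the replicate block and 6 with GC and length offsets. Of all genes, 940 were called by DESeq2, 136 by limma-voom, 139 by limma-trend, 1544 without a filter, 152 without robust estimation, 767 with GC and length offsets and 153 to 631 with a library left out, beside 346. The higher share of calls was 39.7% with upper-quartile factors, 60.8% with library totals only and 37.4% without WT library 2, beside 52.6%, and no scaling moved the median of all genes by 0.1. Chchd7 was 0.024 with library totals only and -0.39 to 0.28 with a library left out. The causes were not tested. The replicate numbers are names that no label ties to a litter or day, and deviations of same-numbered libraries correlated at 0.059. With the replicate block 1108 genes were called, Commd1 had an adjusted p of 0.00667 and no member's call changed. Depth limits Cox17 most, with 33 to 105 reads.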

Other observations

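Some copper enzymes of the wider list were listed at 0 in all 4 libraries: Dbh, Hephl1, Moxd1 and mt-Co2. The last is a subunit of cytochrome c oxidase. Another subunit, mt-Co1, had 1118194 and 989671 reads in WT, against 503404 and 570902 in DDI2-KO. A 0 in these files thus need not be the absence of a transcript. The log2 fold change of mt-Co1 was -0.56 (SE 0.18, adjusted p = 0.116, edgeR).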
